A study of Mus musculus with 4 samples.

Results

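Imprinted growth regulators were followed in the newborn mouse retina: H19, Igf2, Meg3, Dlk1, Peg3, Plagl1, Grb10, Ndn and Mest. They were chosen by name, as the rows with these 9 symbols among the 21825 genes measured, and each had 1 row in every library. Of these genes, 12939 had at least 1 FPKM (fragments scaled to exon length and to the mapped fragments of the library) in at least 1 library, and are called the genes tested below. All 9 imprinted genes were among them, Dlk1 through 1 library alone.

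Cells came from retinas of mice carrying EGFP driven by a Hes1 promoter, labelled as strain FVB/N, although the methods of the study name ICR mice as well. All groups carried this transgene and none was treated. Retinas were taken at postnatal day 1 (P1) and postnatal day 4 (P4), dissociated with trypsin and sorted into EGFP-positive cells (pHes1_EPCs) and EGFP-negative cells (pHes1_ENCs). Each of the 4 groups, pHes1_ENC and pHes1_EPC at P1 and at P4, is 1 RNA-seq library from an unstated number of pooled animals. There were therefore no replicates, no test between groups was possible and no p-value is given. The sort follows activity of a promoter fragment, so each fraction is a mixture of cell types, and a gene can differ because fewer cells of a type were present or because each cell held less of its RNA, which cannot be told apart in such bulk samples.

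Imprinted genes are transcribed mainly from the allele inherited from 1 parent, under the control of DNA methylation laid down in the egg or the sperm. Many of them act on growth: genes active on the paternal copy tend to promote growth of the fetus, and those active on the maternal copy tend to restrain it, with exceptions on both sides. In the retina, progenitor cells give rise to neurons and last to rods, bipolar cells and Müller glia, the radial glia of this tissue, and in the newborn mouse this is still in progress. The reads were not assigned to parental alleles, so imprinting itself was not measured.

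The libraries held 11457 to 12106 genes with at least 1 FPKM. The P4 pHes1_EPC library had the highest sum of FPKM, 450080, against 342618 to 368805 in the other libraries. Read totals are not used here, and the precision of a level is given by the 95% interval that Cufflinks wrote beside it, with a median half-width of 6.08% to 6.37% for genes at 10 FPKM or more. These intervals come from 1 library each and do not cover variation between animals or between sorts. For 16.0% to 18.7% of the expressed genes the deposited FPKM lay outside its own interval, and this was so for Ndn in all 4 libraries, for Meg3 in all but P1 pHes1_EPC and for Plagl1 in both pHes1_EPC libraries. Hes1 matched the sort, at 16.6 and 3.59 FPKM in pHes1_ENCs and 105 and 93.5 FPKM in pHes1_EPCs at P1 and P4. Red blood cell genes summed to 214 and 509 FPKM in the pHes1_ENC libraries at P1 and P4, against 0.848 and 8.68 FPKM in the pHes1_EPC libraries.

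At both ages Plagl1, Grb10 and Mest were more than 2-fold higher in pHes1_EPCs, and Meg3 was more than 2-fold lower. Differences are given as log2(FPKM + 1) in one library minus the other, and more than 2-fold means above 1 or below -1 on this scale, which understates the change of low genes. At P1, 3 of the 9 genes were higher in pHes1_EPCs, against 10.3% of the genes tested, and 1 was lower, against 11.5%. At P4, 3 were higher, against 16.6%, and 2 were lower, Meg3 and Peg3, against 9.15%. The median difference of the 9 genes was 0.38 at P1 and 0.70 at P4, where the median of all genes tested was 0.02 and 0.15. Being higher at both ages was shared by 7.78% of the genes tested and being lower at both ages by 5.46%. H19, Ndn, Dlk1 and Peg3 had differences of opposite sign at the 2 ages, that is 4 of 9, or 3 of 8 without Dlk1, whose sign at P4 was set by the filter, against 23.1% of the genes tested. The P4 split between directions depended on how libraries were scaled: 14.2% higher and 15.3% lower with every library at the same total, 13.1% and 11.6% with median-of-ratios factors, and 11.9% and 12.0% after quantile normalization.

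**Figure D1:**
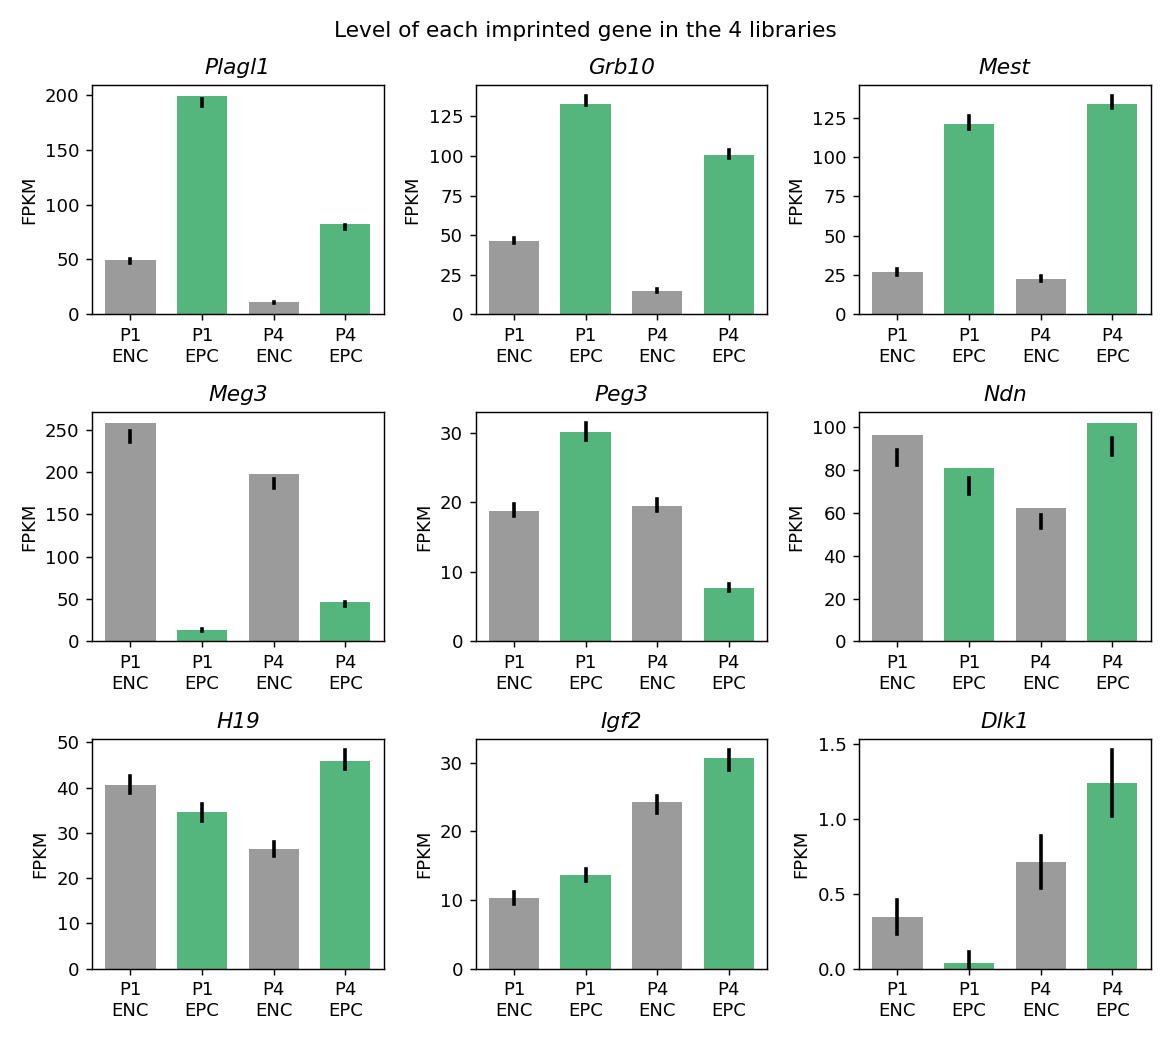
Level of each gene in FPKM (vertical axis, linear from 0, a separate scale for each gene) in the 4 libraries; grey bars are pHes1_ENCs, green bars pHes1_EPCs, and black lines the Cufflinks 95% intervals, which for Ndn and some Meg3 and Plagl1 libraries lie below the deposited FPKM. The green bars stand above the grey ones at both ages for Plagl1, Grb10 and Mest and below them for Meg3.

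Plagl1, Grb10 and Mest are taken first. Plagl1 (also called Zac1) is a paternally expressed zinc finger transcription factor that can arrest the cell cycle and has been studied as a regulator of cell number in the retina. Grb10 is an adaptor protein that binds the insulin and IGF1 receptors and dampens their signaling; it is expressed from the maternal allele in most tissues and from the paternal allele in neurons. Mest, also known as Peg1, is a paternally expressed protein with an alpha/beta hydrolase fold.

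The 250 bases upstream of the annotated start with the most CpG dinucleotides are shown for these 3 genes, which moved together between fractions, and for Meg3, which moved the other way. They are RefSeq sequences on build GRCm38.p6, printed 5′ to 3′ on the strand of the gene. Capitals mark matches, on either strand, to TGCCGC (the core bound by ZFP57, which guards imprints), CACNAG (the N-box) or CACGTG (an E-box), the last 2 being sites that Hes-family factors can bind. No matches overlapped.
Plagl1: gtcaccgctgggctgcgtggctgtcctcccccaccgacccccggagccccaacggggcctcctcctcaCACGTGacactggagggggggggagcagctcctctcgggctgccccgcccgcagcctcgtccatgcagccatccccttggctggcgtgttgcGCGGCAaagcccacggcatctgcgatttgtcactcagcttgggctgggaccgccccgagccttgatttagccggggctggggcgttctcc
Grb10: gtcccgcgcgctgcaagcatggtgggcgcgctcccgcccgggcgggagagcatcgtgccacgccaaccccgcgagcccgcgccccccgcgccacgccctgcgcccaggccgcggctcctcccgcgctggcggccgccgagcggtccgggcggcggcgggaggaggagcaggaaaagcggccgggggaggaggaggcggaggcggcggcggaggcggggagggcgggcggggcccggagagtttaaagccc
Mest: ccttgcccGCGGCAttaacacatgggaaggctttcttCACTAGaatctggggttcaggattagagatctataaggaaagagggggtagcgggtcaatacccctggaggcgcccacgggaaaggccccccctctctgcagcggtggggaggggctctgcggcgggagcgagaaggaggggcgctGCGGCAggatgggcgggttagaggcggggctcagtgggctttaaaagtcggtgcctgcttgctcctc
Meg3: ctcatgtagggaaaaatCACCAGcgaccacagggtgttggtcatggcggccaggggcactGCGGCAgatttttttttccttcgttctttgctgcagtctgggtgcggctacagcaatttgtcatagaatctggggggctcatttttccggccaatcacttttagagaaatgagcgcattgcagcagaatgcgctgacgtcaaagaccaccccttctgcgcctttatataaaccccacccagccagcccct
The Plagl1 window lies at chr10:13090582-13090831 (+), the Grb10 window at chr11:12037421-12037670 (-), the Mest window at chr6:30737800-30738049 (+) and the Meg3 window at chr12:109540746-109540995 (+). The Grb10 window held 40 CpG dinucleotides, that of Plagl1 19, that of Mest 14 and that of Meg3 10, where the median over 32851 upstream windows of all genes was 6 and the upper quartile 16. The ZFP57 core stood 90 bases upstream of the start in Plagl1, 242 and 67 bases upstream in Mest and 190 bases upstream in Meg3, and 8.68% of all windows held one. The N-box letters stood 213 bases upstream in Mest and 233 bases upstream in Meg3 and were in 36.7% of all windows, and the E-box letters stood 182 bases upstream in Plagl1 and were in 6.02%. None of these letters were in the Grb10 window. Of 2 further motifs searched on both strands, CACGCG, another Hes site held by 7.62% of all windows, was in no window of the imprinted genes, and GGGGCCCC, a site described for PLAGL1 itself and held by 0.889%, was in that of Peg3, 201 bases upstream. The motif matches are descriptions of letters only. Windows were found for 8 of the 9 genes, 15 windows in all; H19 had none.

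Plagl1 (mm9 chr10:12810594-12851501, +) was at 49.7 FPKM in P1 pHes1_ENCs, 199 FPKM in P1 pHes1_EPCs, 10.8 FPKM in P4 pHes1_ENCs and 81.8 FPKM in P4 pHes1_EPCs. It was high in both pHes1_EPC libraries and lower at P4 than at P1 in both fractions. Its ratio between fractions, pHes1_EPCs over pHes1_ENCs, was 4.01 at P1 (range from the intervals 3.77 to 4.18) and 7.55 at P4 (6.69 to 8.18). In P1 pHes1_EPCs, Plagl1 ranked 157th among all genes. Of the nearby genes, Ltv1 had fraction differences of 0.55 at P1 and 1.0 at P4, Phactr2 of 1.12 and 0.90, and Sf3b5, a splicing factor gene, of 0.67 and 1.18.

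Grb10 (mm9 chr11:11830502-11937423, -) was at 46.3 FPKM in P1 pHes1_ENCs, 133 FPKM in P1 pHes1_EPCs, 15.0 FPKM in P4 pHes1_ENCs and 100.5 FPKM in P4 pHes1_EPCs. The ratio of the fractions was 2.88 at P1 (2.75 to 3.05) and 6.72 at P4 (6.24 to 7.38). Its level in pHes1_ENCs was 3.09 times lower at P4 than at P1 (2.86 to 3.42), while that in pHes1_EPCs was 1.33 times lower (1.27 to 1.39). The nearby Fignl1 and Cobl were also higher in pHes1_EPCs at both ages, with differences of 2.14 and 2.49 for Fignl1 and of 1.42 and 2.1 for Cobl, while Ddc, the dopa decarboxylase gene next to Grb10, was at or below 0.439 FPKM.

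Mest (mm9 chr6:30688063-30698457, +) was at 26.9 FPKM in P1 pHes1_ENCs, 121 FPKM in P1 pHes1_EPCs, 22.7 FPKM in P4 pHes1_ENCs and 134 FPKM in P4 pHes1_EPCs. Within a fraction, the ratio of P4 to P1 was 0.845 in pHes1_ENCs (0.745 to 0.956) and 1.11 in pHes1_EPCs (1.05 to 1.18). The fractions differed 4.49-fold at P1 (4.16 to 4.96) and 5.90-fold at P4 (5.43 to 6.56). Mest shares 904 exonic bases, 23.0% of its exons, with Copg2 on the opposite strand, and the libraries did not mark strand, so reads from that stretch cannot be told apart. Copg2 itself, a coat protein subunit gene, was at 23.4 to 29.2 FPKM in the 4 libraries. Tmem209, farther away, had fraction differences of 1.16 at P1 and 1.03 at P4.

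Markers of progenitors and of Müller glia moved with these 3 genes between fractions, but not throughout between ages. The 10 progenitor markers summed to 581 and 2872 FPKM in pHes1_ENCs and pHes1_EPCs at P1 and to 151 and 1631 FPKM at P4, and the 9 Müller glia markers to 347 and 1096 FPKM at P1 and to 276 and 2399 FPKM at P4, with none of either list at 0. In pHes1_EPCs the progenitor sum was lower at P4 than at P1, as were Plagl1 and Grb10, while the Müller glia sum was higher. Mest was at 121 and 134 FPKM there. The 8 endothelial markers summed to 63.8 and 213 FPKM at P1 and to 15.3 and 194 FPKM at P4, most of it Kdr, which lay between 12.0 and 209 FPKM. The endothelial genes Pecam1, Cdh5, Tek, Tie1, Esam and Emcn were each below 1 FPKM in every library, with Cdh5 and Emcn at 0 at P4. The part of cell mixture in the differences of Plagl1, Grb10 and Mest was not tested.

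Meg3, a maternally expressed long noncoding RNA studied as a tumor suppressor, was on the other side. Meg3 (mm9 chr12:110779206-110809939, +) was at 258 FPKM in P1 pHes1_ENCs, 13.6 FPKM in P1 pHes1_EPCs, 198 FPKM in P4 pHes1_ENCs and 46.3 FPKM in P4 pHes1_EPCs. It was high in both pHes1_ENC libraries, where it ranked 78th and 166th among all genes, and lowest in P1 pHes1_EPCs, where it ranked 5327th. pHes1_ENCs held 19.0 times as much as pHes1_EPCs at P1 (16.3 to 20.7) and 4.28 times as much at P4 (3.94 to 4.64). Only 22 of the genes tested had a lower P1 difference than the -4.15 of Meg3. Meg3 shares 1228 exonic bases, 6.79% of its exons, with the antisense gene Gm17639, from which its reads cannot be told apart there.

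Rian and Mirg, the noncoding RNAs that follow Meg3 on chromosome 12 and are also maternally expressed, were lower in pHes1_EPCs at P1 as well. Rian was at 77.7 and 5.45 FPKM in P1 pHes1_ENCs and pHes1_EPCs and at 52.9 and 20.2 FPKM at P4, differences of -3.61 and -1.35. Mirg was at 8.26 and 0.695 FPKM at P1 and at 5.3 and 3.9 FPKM at P4, differences of -2.45 and -0.36, the latter within 2-fold. The locus of Rian begins 32.2 kb and that of Mirg 163 kb beyond Meg3. Of the paternally expressed genes within 250 kb of Meg3, Rtl1 was at or below 0.164 FPKM in every library, and Dlk1 lies 77.7 kb away.

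Dlk1, a transmembrane protein with EGF repeats that is related to the Notch ligands and is known for restraining the differentiation of fat cells, was near the limit of detection. Dlk1 (mm9 chr12:110691033-110701546, +) was at 0.343 FPKM in P1 pHes1_ENCs, 0.0369 FPKM in P1 pHes1_EPCs (interval 0 to 0.111), 0.713 FPKM in P4 pHes1_ENCs and 1.24 FPKM in P4 pHes1_EPCs. It entered the genes tested only through the P4 pHes1_EPC library, so its positive sign at P4 was set by the filter. Its fraction differences were -0.37 at P1 and 0.38 at P4, within 2-fold on this scale, but the P1 difference rests on the pseudocount: it was -1.69 with a pseudocount of 0.1 and -3.22 as a plain ratio. Its difference from P1 to P4 in pHes1_EPCs was 1.11.

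Markers of amacrine and horizontal cells and of rods moved with Meg3 in part. The 11 amacrine and horizontal markers summed to 277 and 31.5 FPKM in pHes1_ENCs and pHes1_EPCs at P1 and to 96.8 and 33.1 FPKM at P4. Slc6a9 made most of the P4 pHes1_ENC sum, at 62.6 FPKM against 19.1 FPKM at P1. Prox1 made most of the pHes1_EPC sums, at 23.2 and 18.1 FPKM. From P1 to P4 in pHes1_ENCs, 5 of the 9 markers among the genes tested were more than 2-fold lower and 1, Slc6a9, higher. The 7 rod markers summed to 687 and 41.2 FPKM at P1 and to 3971 and 742 FPKM at P4, the 9 ganglion cell markers to 40.8 and 22.8 FPKM at P1 and to 8.74 and 7.06 FPKM at P4, and the 7 bipolar markers to 38.4 and 7.38 FPKM at P1 and to 33.1 and 15.0 FPKM at P4. Prdm8 made most of the bipolar sums in pHes1_ENCs, at 33.1 FPKM at P1 and 21.9 FPKM at P4. Rod markers were higher at P4 than at P1 in pHes1_ENCs, where Meg3 was lower. Their part in the difference of Meg3 was not tested.

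**Figure D2:**
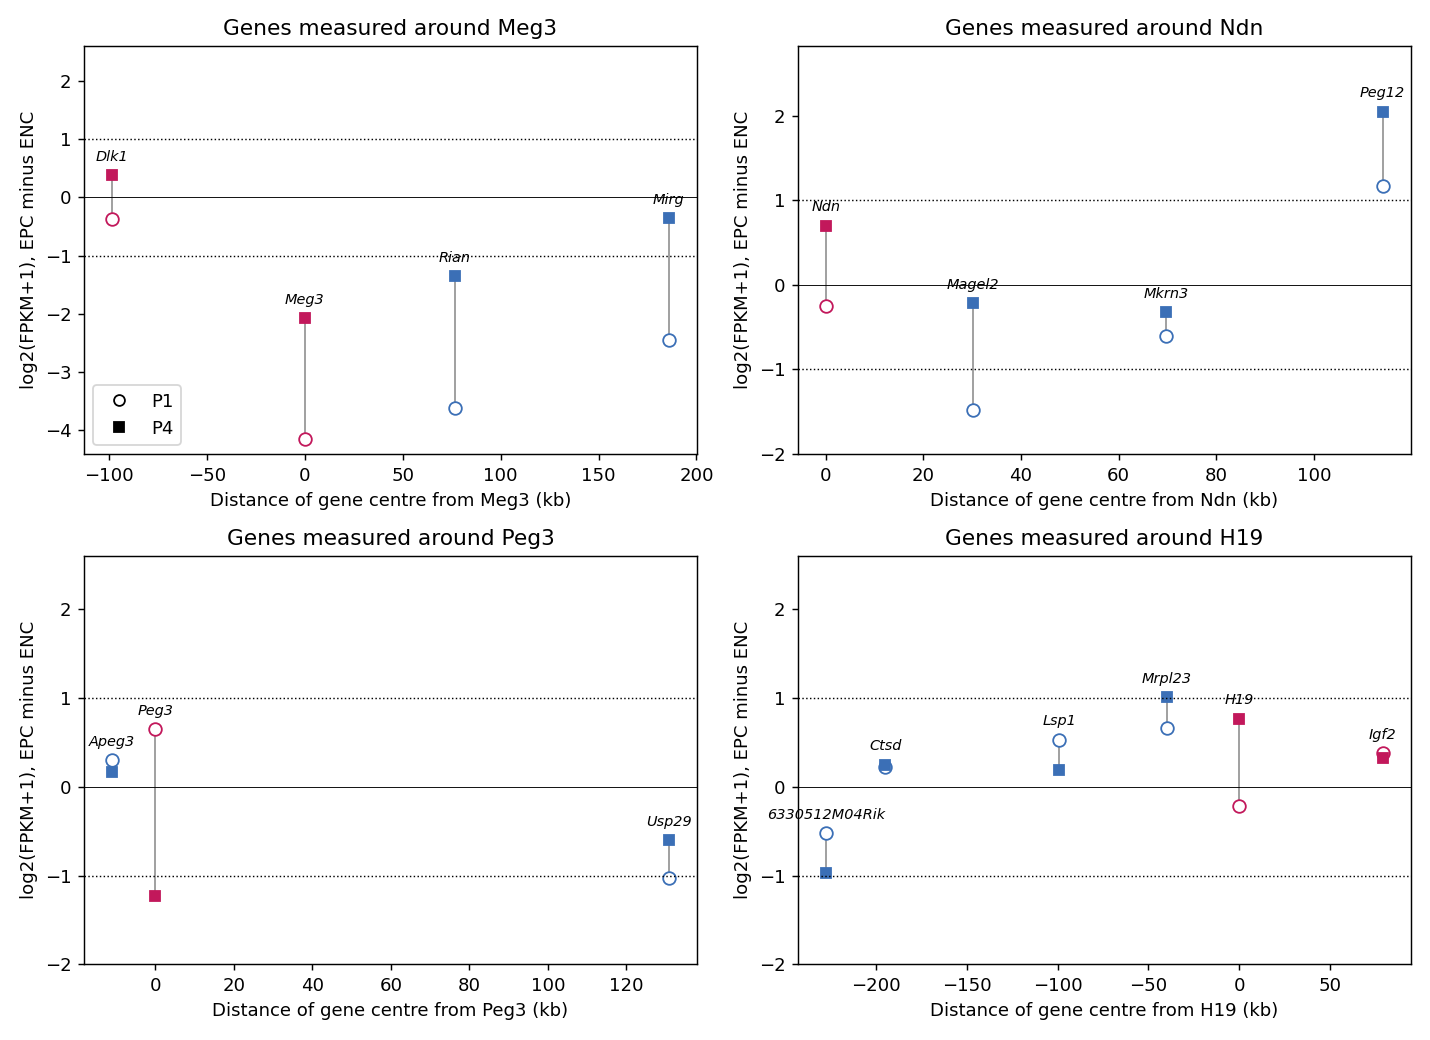
Difference between fractions, log2(FPKM + 1) in pHes1_EPCs minus pHes1_ENCs (vertical axis), against the distance of each gene's centre from Meg3, Ndn, Peg3 or H19 in kb (horizontal axis), for genes within 250 kb that were among the genes tested; open circles are P1, squares P4, the imprinted genes under study are red and their neighbours blue, and dotted lines mark 2-fold. Meg3, Rian and Mirg were all below -1 at P1 while Dlk1 lay at -0.37, and Peg12 lay above 1 at both ages while Ndn did not. The P1 value of Dlk1 rests on the added 1 and was -3.22 as a plain ratio.

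Igf2 and H19 lie 72.6 kb apart and share enhancers in other tissues, where the paternal allele makes Igf2 and the maternal allele H19. Igf2 is a secreted growth factor that signals through the IGF1 and insulin receptors, and H19 is a noncoding RNA that also carries the microRNA Mir675 in an exon. Igf2 differed more between ages, and H19 was on opposite sides of the fractions at P1 and P4.

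Igf2 (mm9 chr7:149836673-149846940, -) was at 10.3 FPKM in P1 pHes1_ENCs, 13.7 FPKM in P1 pHes1_EPCs, 24.3 FPKM in P4 pHes1_ENCs and 30.7 FPKM in P4 pHes1_EPCs. Both P4 libraries were above both P1 libraries. The ratio of P4 to P1 was 2.36 in pHes1_ENCs (2.05 to 2.67) and 2.24 in pHes1_EPCs (1.99 to 2.50), and the ratio of the fractions was 1.33 at P1 (1.14 to 1.53) and 1.26 at P4 (1.14 to 1.40). The difference between ages in pHes1_EPCs was 1.11 on the log2 scale as deposited and 0.93 relative to the median of all genes tested in that comparison, so it was past 2-fold only before this shift was removed.

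H19 (mm9 chr7:149761437-149764051, -) was at 40.6 FPKM in P1 pHes1_ENCs, 34.6 FPKM in P1 pHes1_EPCs, 26.4 FPKM in P4 pHes1_ENCs and 45.9 FPKM in P4 pHes1_EPCs. It was lowest in P4 pHes1_ENCs and highest in P4 pHes1_EPCs. The level in pHes1_EPCs over that in pHes1_ENCs was 0.853 at P1 (0.766 to 0.942) and 1.74 at P4 (1.57 to 1.94), and no H19 difference passed 2-fold. Of the other genes near H19, Mrpl23, a gene of the mitochondrial ribosome 34.8 kb away, was at 28.4 and 45.4 FPKM at P1 and at 33.5 and 68.7 FPKM at P4 in pHes1_ENCs and pHes1_EPCs, differences of 0.66 and 1.01, and Ctsd, a lysosomal protease gene, was at 70.4 to 141 FPKM. Ins2 was at 0.465 FPKM in P4 pHes1_EPCs and at 0 in the other libraries, and Nctc1 was at or below 0.0382 FPKM.

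Since Igf2 and H19 are known from mesenchyme and vessels, markers of other tissues are given beside them. The 9 mural and mesenchymal markers summed to 3.71 to 7.05 FPKM in the 4 libraries, with Lum at 0 in all but P4 pHes1_EPCs and Dcn at 0 in both pHes1_ENC libraries. The 6 microglial markers summed to 2.07 to 10.2 FPKM and the 4 astrocyte markers to 3.72 to 14.1 FPKM. The 6 pigment epithelium markers summed to 42.3 FPKM in P4 pHes1_EPCs and to 1.51 to 3.26 FPKM in the other libraries, most of it Ttr at 23.1 FPKM and Dct at 15.0 FPKM, while Rpe65 was at 0.422 FPKM. H19, Igf2, Ndn, Mest and Dlk1 each had their highest deposited level in that same library, and the part of pigment epithelium in this was not tested. This place can depend on scaling. The difference from P1 to P4 in pHes1_EPCs was 0.15 for Mest and 0.33 for Ndn as deposited, and -0.19 and 0.0 at the same total.

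With the added 1, Peg3, a paternally expressed zinc finger protein linked to growth and maternal behavior, was the only one of the 9 genes that passed 2-fold in one fraction comparison and had the opposite sign in the other. Dlk1 did so too with a pseudocount of 0.1, at -1.69 and 0.72, and as a plain ratio, at -3.22 and 0.79, at P1 and P4. Peg3 (mm9 chr7:6658671-6683130, -) was at 18.8 FPKM in P1 pHes1_ENCs, 30.1 FPKM in P1 pHes1_EPCs, 19.5 FPKM in P4 pHes1_ENCs and 7.73 FPKM in P4 pHes1_EPCs. The intervals of the pHes1_ENC libraries overlapped, and the pHes1_EPC libraries held the highest and the lowest level. It was 1.60 times higher in pHes1_EPCs at P1 (1.47 to 1.73) and 2.53 times higher in pHes1_ENCs at P4 (2.28 to 2.84). The change in pHes1_EPCs from P1 to P4 was -1.83, and 84 of the genes tested, 0.649%, had a lower value.

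Apeg3, transcribed antisense to Peg3, was at 6.80 to 9.32 FPKM, and its reads cannot be told apart from those of Peg3 where they overlap. Usp29, a deubiquitinase gene whose locus begins 0.322 kb from that of Peg3 and is also paternally expressed, was at 2.26 and 0.593 FPKM at P1 and at 0.870 and 0.230 FPKM at P4 in pHes1_ENCs and pHes1_EPCs. Unlike Peg3, Usp29 was lower in pHes1_EPCs at both ages, by differences of -1.03 and -0.60.

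Ndn (necdin), a paternally expressed MAGE protein of neurons that binds E2F1 and restrains division, was at 96.4 FPKM in P1 pHes1_ENCs, 80.8 FPKM in P1 pHes1_EPCs, 62.4 FPKM in P4 pHes1_ENCs and 102 FPKM in P4 pHes1_EPCs. It lies at mm9 chr7:69493163-69494813 (+) in 1 exon. Ndn was among the more abundant of the 9 genes in every library and was highest in P4 pHes1_EPCs and lowest in P4 pHes1_ENCs. Its level in pHes1_EPCs relative to pHes1_ENCs was 0.838 at P1 (0.768 to 0.926) and 1.63 at P4 (1.48 to 1.79), and none of its differences passed 2-fold.

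The paternally expressed neighbors of Ndn are given in pHes1_ENCs and pHes1_EPCs in turn. Magel2, another MAGE gene, was at 3.35 and 0.556 FPKM at P1 and at 0.511 and 0.294 FPKM at P4, with differences of -1.48 and -0.22. Mkrn3, a ubiquitin ligase gene, had differences of -0.61 and -0.32. Peg12, a relative of the Frat proteins of Wnt signaling, was at 6.66 and 16.3 FPKM at P1 and at 1.67 and 10.1 FPKM at P4, with differences of 1.17 and 2.05.

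From P1 to P4, Igf2 was higher in both fractions and Plagl1 lower in both, while Meg3 and Peg3 passed 2-fold in pHes1_EPCs alone. These comparisons use the same libraries as those between fractions. In pHes1_ENCs, Igf2 was the 1 gene of the 9 past 2-fold upward at P4, against 4.67% of the genes tested, and 2 were lower, Plagl1 (-2.10) and Grb10 (-1.57), against 10%. In pHes1_EPCs, 3 were higher, Igf2 (1.11), Meg3 (1.70) and Dlk1 (1.11), against 7.04%, and 2 were lower, Peg3 (-1.83) and Plagl1 (-1.27), against 4.33%. Without Dlk1, which was tested only because of its level there, 2 were higher, Igf2 and Meg3. Under each of the 3 other scalings 2 were higher, Meg3 and Dlk1, and Igf2 was at 0.81 to 0.94. With Dlk1 left out, Meg3 alone was higher under those scalings. The median of the 9 genes was -0.38 in pHes1_ENCs and 0.33 in pHes1_EPCs, where that of all genes tested was -0.01 and 0.17. After other scalings the shares in pHes1_EPCs were 5.09% higher and 9.97% lower at the same total, 4.74% and 6.0% with median-of-ratios factors, and 4.58% and 5.76% after quantile normalization, and those in pHes1_ENCs were 4.66% and 15.4% at the same total, 4.82% and 9.94% with median-of-ratios factors and 5.82% and 7.79% after quantile normalization. The shares at the same total also carry the lower weight of the added 1. Small changes in pHes1_EPCs followed the scaling: that of Mest was 0.15 as deposited and -0.19 at the same total, and that of Ndn was 0.33 and 0.0.

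**Figure D3:**
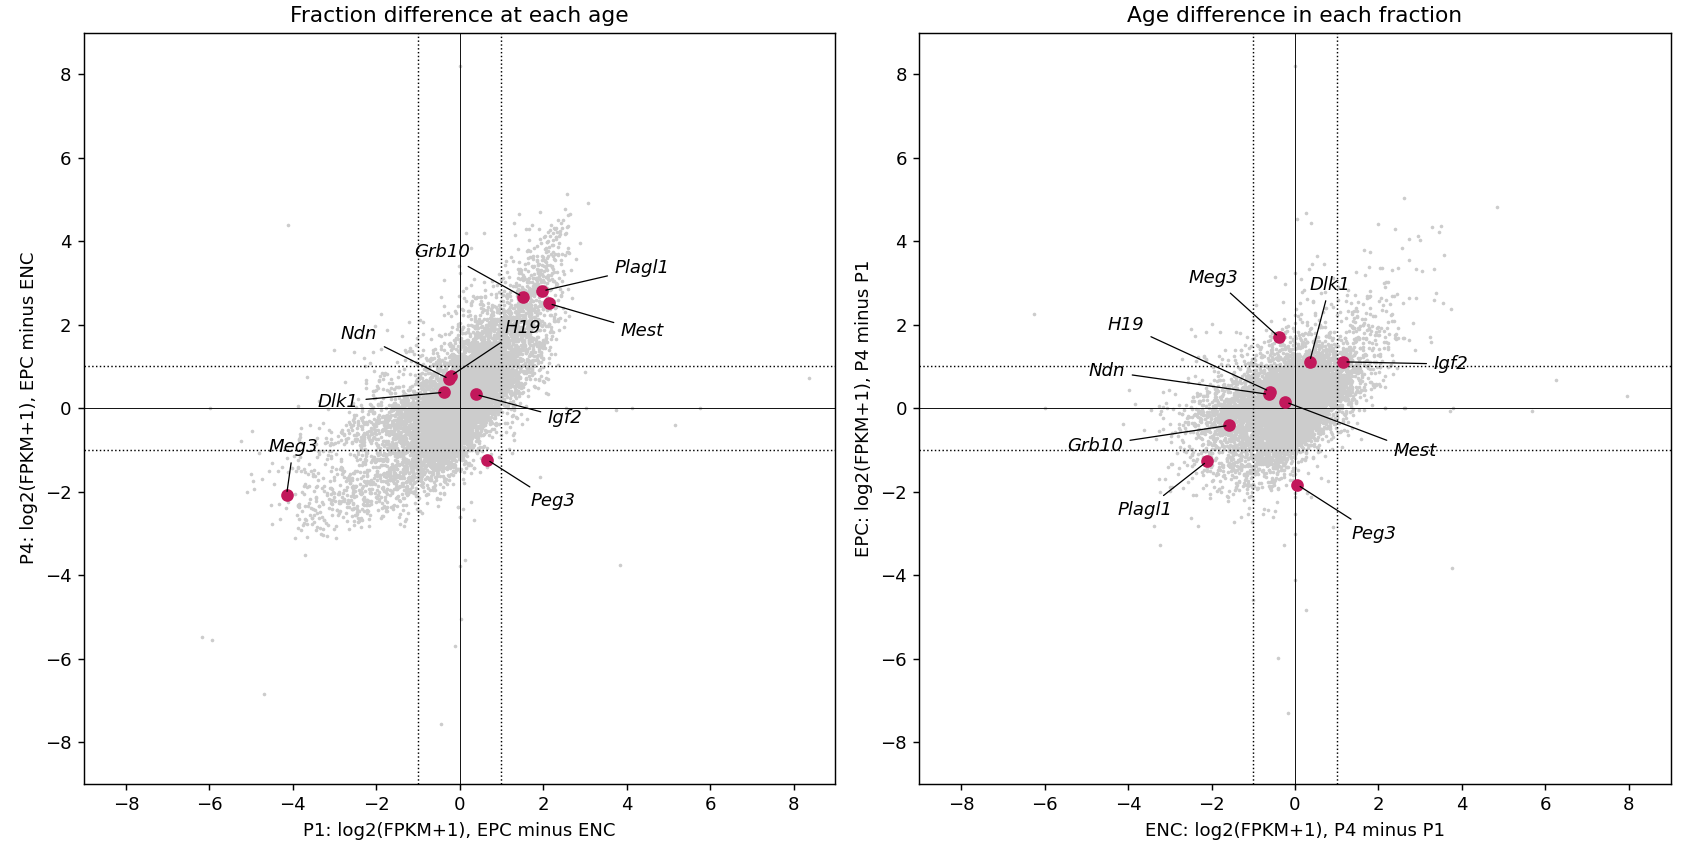
Left, difference between fractions at P4 (vertical axis) against P1 (horizontal axis); right, difference between ages in pHes1_EPCs (vertical axis) against pHes1_ENCs (horizontal axis), all as log2(FPKM + 1). Grey points are the 12939 genes tested, red points the 9 imprinted genes, and dotted lines mark 2-fold; Plagl1, Grb10 and Mest lie at the upper right of the left panel, Meg3 at its lower left, and Peg3 lies low on the vertical axis of both panels.

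The order of the levels, which FPKM allows since it is per length, differed between libraries. Meg3 was first in both pHes1_ENC libraries and Ndn second. Plagl1 was first in P1 pHes1_EPCs, followed by Grb10 and Mest, and Mest was first in P4 pHes1_EPCs, followed by Ndn and Grb10. The deposited level of Ndn there lay above its own interval, which ran from 87.2 to 94.9 FPKM and so stayed under that of Grb10, 98.8 to 104 FPKM. Dlk1 was last in all 4. Neighbors in the order with overlapping intervals were Plagl1 and Grb10 in P1 pHes1_ENCs, Igf2 and Meg3 in P1 pHes1_EPCs, H19 with Igf2 and Igf2 with Mest in P4 pHes1_ENCs, and Meg3 and H19 in P4 pHes1_EPCs. Together the 9 genes made 547 and 626 FPKM in pHes1_ENCs and pHes1_EPCs at P1 and 380.3 and 550.3 FPKM at P4. Without Meg3 these sums were 289 and 613 FPKM at P1 and 182 and 504 FPKM at P4.

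Patterns were also compared by distance, the Euclidean distance between log2(FPKM + 1) profiles over the 4 libraries after each was centered on its own mean, so that 0 is an identical pattern. Among the 9 genes, H19 and Ndn were closest (0.0698) and Meg3 and Plagl1 farthest apart (6.02). Plagl1 and Grb10 were 0.783 apart and Grb10 and Mest 1.05. Over 10461 genes with at least 5 FPKM in some library, the nearest to Plagl1 were Melk (0.102), Nuf2 (0.116) and Bub1 (0.140), and the nearest to Grb10 were Trim59 (0.0532), Adam12 (0.132) and 4933436C20Rik (0.134). The nearest to Meg3 were Dusp26 (0.340), Ptpro (0.395) and Slitrk6 (0.440), those to Mest Rab20, Gcnt4 and Etv1, and those to Peg3 D730040F13Rik, Xpo4 and Zfp536. The nearest to H19 were Thtpa (0.0154), Irf9 and Ndn, and those to Ndn were Hnrnph3 (0.0267), Fam49b and Irf9. Those to Igf2 were Tspan7 (0.117), 1500011K16Rik and Sdc4. For Dlk1 the nearest were Pigp, Gabarap and Srp14, but its profile depended on the added 1. Dlk1 was at 0.0369 to 1.24 FPKM, and its plain ratio of pHes1_EPCs to pHes1_ENCs at P1 was 0.107. Pigp was at 24.7 FPKM in P1 pHes1_EPCs and 31.4 FPKM in P1 pHes1_ENCs, so its closeness to Dlk1 is not a shared ratio. The added 1 also shaped closeness to other genes that were low in a library. In P4 pHes1_ENCs, Melk was at 0.695, Bub1 at 0.741, Adam12 at 0.825, Rab20 at 0.302 and Gcnt4 at 0.281 FPKM. Their closeness to Plagl1, Grb10 or Mest is therefore not a shared ratio either. With 4 points a profile, closeness of this kind is a description only.

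Other imprinted genes showed both directions. The shares of all genes tested past 2-fold given above, and their medians of 0.02 at P1 and 0.15 at P4, stand beside each list that follows. Of 23 further paternally expressed genes, 18 were among the genes tested, and at P1 2 were more than 2-fold higher in pHes1_EPCs and 8 lower, with a median of -0.62, while at P4 4 were higher and 3 lower, with a median of 0.03. Dio3, which inactivates thyroid hormone, was higher at both ages, by 2.38 and 1.86, and Peg13, a noncoding RNA, was lower at both, by -1.95 and -1.12. Nnat (neuronatin), a small membrane protein, was at 1010.3 and 300.4 FPKM in pHes1_ENCs and pHes1_EPCs at P1 and at 289 and 1067 FPKM at P4, so it passed 2-fold in opposite directions. Begain, at the Dlk1 end of the Meg3 region, did the same, at 12.0 and 4.74 FPKM at P1 and at 2.65 and 8.85 FPKM at P4. Zdbf2 differed by -0.32 at P1 and by -1.43 at P4.

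Of 26 further genes with a maternal active allele in some tissue, 15 were among the genes tested, with 0 higher and 5 lower in pHes1_EPCs at P1 (median -0.43) and 2 higher and 2 lower at P4 (median -0.10). Rian and Mirg were the lowest at P1. Cdkn1c, a cell cycle inhibitor, was at 19.8 and 8.80 FPKM at P1 and at 21.8 and 55.1 FPKM at P4, differences of -1.09 and 1.30. Tssc4 differed by 0.70 and 0.65. Ube3a, a ubiquitin ligase that is imprinted in neurons, differed by -0.43 and -1.12.

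Of 15 factors that set or keep imprints, 12 were among the genes tested, with 2 higher and 1 lower in pHes1_EPCs at P1 (median -0.10) and 1 higher and 0 lower at P4 (median 0.08). Uhrf1, which brings DNA methyltransferase to replicated DNA, was at 17.6 and 113 FPKM at P1 and at 1.32 and 29.7 FPKM at P4. Dnmt1, the methyltransferase that copies methylation after replication, was at 28.6 and 74.6 FPKM at P1 and at 19.1 and 22.9 FPKM at P4. Zfp57, whose site is marked in the Plagl1, Mest and Meg3 windows above, was at 30.7 and 6.77 FPKM at P1 and at 8.59 and 10.4 FPKM at P4, differences of -2.03 and 0.24. Arid4a differed by -0.17 and -0.95.

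**Figure D4:**
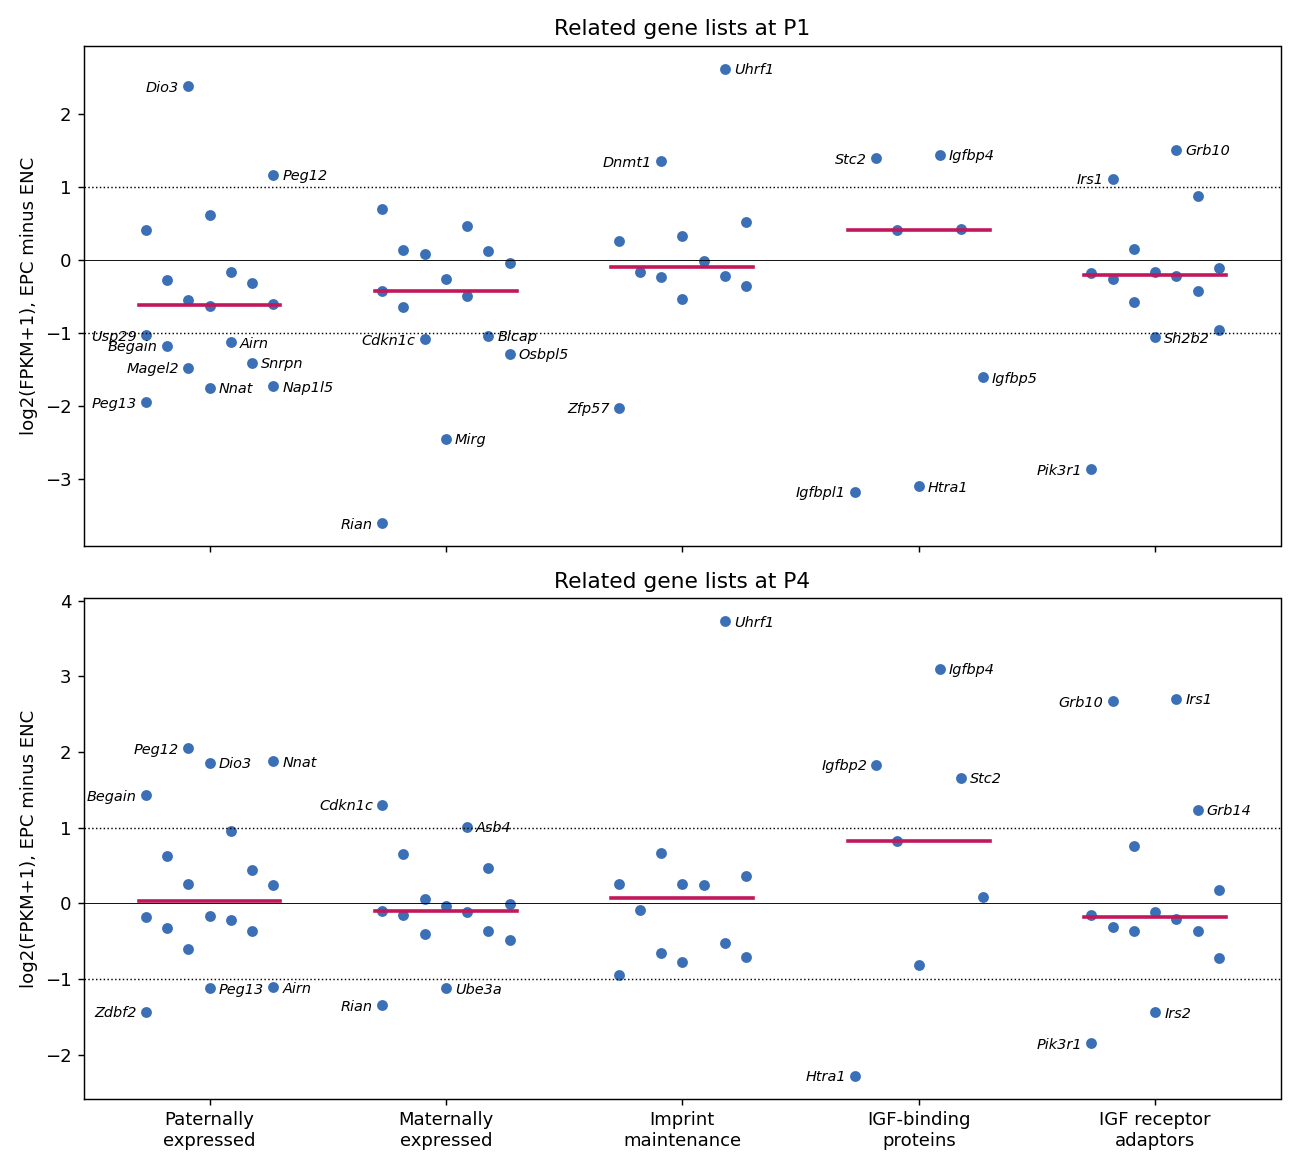
Difference between fractions, log2(FPKM + 1) in pHes1_EPCs minus pHes1_ENCs (vertical axis), at P1 (upper panel) and P4 (lower panel) for 5 lists of genes (horizontal axis, the 9 imprinted genes left out of the first 2 lists and Grb10 kept among the adaptors); each point is a gene tested, red bars are list medians, dotted lines mark 2-fold and genes past them are named. The paternally expressed list has its median at -0.62 at P1 and 0.03 at P4, with Nnat and Begain changing sides.

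The rest of the IGF pathway was measured beside Igf2 and Grb10. Of its 8 ligands and receptors, 4 were among the genes tested and none of these passed 2-fold between fractions (medians -0.21 at P1 and -0.31 at P4). Igf1r, the main receptor, was at 31.6 and 28.1 FPKM at P1 and at 28.6 and 20.0 FPKM at P4 in pHes1_ENCs and pHes1_EPCs, Insr had differences of -0.39 and -0.48, and Igf2r, the imprinted receptor that removes Igf2, had differences of -0.26 and -0.15. Igf1 was at or below 0.161 FPKM, Ins1 at or below 0.0472 FPKM and Insrr at or below 0.646 FPKM in every library, and of the IGF and insulin ligands Igf2 alone reached 1 FPKM in any library. All 3 IGF2 mRNA-binding proteins, Igf2bp1, Igf2bp2 and Igf2bp3, were within 2-fold between fractions, at 0.23, 0.78 and 0.36 at P1 and at 0.57, 0.68 and 0.12 at P4.

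Of 12 IGF-binding proteins and their regulators, 7 were among the genes tested, with 2 higher and 3 lower in pHes1_EPCs at P1 (median 0.41) and 3 higher and 1 lower at P4 (median 0.82). Igfbp4 was at 39.0 and 108 FPKM at P1 and at 10.1 and 93.8 FPKM at P4. Igfbp2 was at 37.0 and 49.8 FPKM at P1 and at 25.0 and 91.4 FPKM at P4. Htra1, a protease that can cleave binding proteins, went the other way, at 26.0 and 2.16 FPKM at P1 and at 179.6 and 36.3 FPKM at P4, and Igfbpl1 was at 11.9 and 0.422 FPKM at P1.

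Of 16 adaptors and regulators of these receptors, 14 were among the genes tested, Grb10 included, with 2 higher and 2 lower at P1 (median -0.20) and 3 higher and 2 lower at P4 (median -0.18). Irs1, the docking protein that carries the receptor signal, was higher in pHes1_EPCs with Grb10, at 7.75 and 17.9 FPKM at P1 and at 0.973 and 11.8 FPKM at P4. Pik3r1, the regulatory subunit of PI3 kinase, was lower, at 151 and 19.8 FPKM at P1 and at 211 and 57.7 FPKM at P4. Grb14, the close relative of Grb10, had differences of -0.96 at P1 and 1.24 at P4, while Grb7 was at or below 0.149 FPKM.

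Relatives and partners of the other imprinted genes were counted in the same way. Of the 3 PLAG factors, Plagl1 alone passed 2-fold between fractions, while Plag1 differed by 0.10 and -0.27 and Plagl2 by 0.0 and -0.82. Of 10 Notch ligands and relatives, Dlk1 included, 1 was higher and 5 lower in pHes1_EPCs at P1 (median -1.12) and 2 were higher and 2 lower at P4 (median 0.54), with Cntn6 at 1.75 and 2.85 Dll4 at -2.36 and 0.09, and Jag2 at -1.51 and -1.45. Of 12 MAGE genes and necdin partners, 11 were among the genes tested, with 2 higher and 5 lower at P1 (median -0.40) and 3 higher and 1 lower at P4 (median 0.38). E2f1, the cell cycle factor bound by necdin, was at 27.4 and 103 FPKM at P1 and at 5.60 and 72.0 FPKM at P4, and Ngfr, the neurotrophin receptor that necdin also binds, was at 9.59 and 44.5 FPKM at P1 and at 3.11 and 50.6 FPKM at P4. Magee1 differed by -1.43 and -0.48, and Bbs4, another partner, by -1.01 and -1.45. Of 16 alpha/beta hydrolase fold genes, 1 was higher at P1, Mest, and 2 lower (median 0.25), and at P4 3 were higher and 3 lower (median 0.33), with Abhd3 at -2.30 and -1.75 and Abhd14b at -1.74 and -2.36.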

How the data were processed

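Retinal cells of pHes1-EGFP mice were sorted by EGFP at postnatal day 1 and 4, giving 4 libraries, 1 per group. According to the labels and the methods of the study, random-primed cDNA was sequenced as 36-base single reads, aligned by the authors to NCBI37/mm9 with TopHat2 2.0.8b (coverage search, up to 50 hits per read), and the deposited FPKM values, with 95% intervals and a status, were estimated with Cufflinks 2.1.1 under default settings. The submitters' processing notes also name bcl2fastq 1.8.4. The FPKM tables were not normalized further here except in the alternatives.

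Each table had 23021 lines. The 799 lines of small RNAs were left out, 234 symbols with several lines were each represented by their line of highest FPKM, and 21825 genes remained. The status of the 9 imprinted genes was OK in all libraries. Differences were taken as log2(FPKM + 1) over the 12939 genes with at least 1 FPKM in at least 1 library, using Python 3.11.15, numpy 2.4.6 and pandas 2.3.3, and ratio ranges from the interval bounds. Only the 2-fold call was tested on simulated counts, built from genes of at least 10 FPKM. The other calculations, and low genes such as Dlk1, were not tested in this way. FPKM counts multi-hit reads and reads of either strand, so antisense overlaps cannot be separated.

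The 9 genes and all 23 lists were chosen with earlier results of these data known. All 9 genes and Hes1 are named, and for each imprinted gene the 3 nearest profiles. From each list other than the marker lists, the genes of at least 5 FPKM with the largest and the smallest difference between fractions at each age are named (all genes of lists of up to 8). Neighbors within 250 kb, marker genes and the list genes Nnat, Begain, Ube3a, Dnmt1, Igfbp2, Grb7, Grb14 and E2f1 were chosen for naming after their values were seen. Coordinates of genes are those of the tables (mm9) and exon overlaps come from GENCODE M1; 234 of 235 list symbols were found. Upstream windows are RefSeq GRCm38.p6. Alternatives changed the pseudocount, the scaling, the filters, the handling of repeated symbols and small RNAs, the status filter and the call.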

Additional observations from a re-analysis of the deposited data

Results flagged for a closer look

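The difference between pHes1_EPCs and pHes1_ENCs had opposite signs at P1 and P4 for H19, Peg3, Ndn and Dlk1. With 1 library in each group, the difference between the ages was not tested. The P4 difference minus the P1 difference on the log2(FPKM + 1) scale was 1.00 for H19, -1.88 for Peg3, 0.95 for Ndn and 0.76 for Dlk1. Dlk1 was at 1.24 FPKM or less in all 4 libraries and passed the filter on low values only through P4 pHes1_EPCs, which sets its positive sign at P4.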

How the results depend on the processing

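Under 11 alternatives, 385 of 392 recomputed values of the 9 genes kept their sign and 386 kept their side of 2-fold. Many of these values could not have changed. Each of the 9 genes had 1 line and status OK, so only the pseudocount and scaling settings could move its difference. The settings for filters, repeated symbols, small RNAs, status and the call left it as it was. Through Dlk1, 2 of the 9 genes were lower in pHes1_EPCs at P1 with a pseudocount of 0.1 and also 2 with a ratio without pseudocount, where Dlk1 stood at -1.69 and -3.22, and 2 were higher at P4 in pHes1_ENCs with the ratio (Dlk1 at 1.05). With a minimum of 10 FPKM Dlk1 was left out, and 2 in place of 3 were higher at P4 in pHes1_EPCs. The difference of Igf2 between ages in pHes1_EPCs was 0.81 at the same total, 0.94 with median-of-ratios factors and 0.92 after quantile normalization, below 2-fold, in place of 1.11. Under these scalings 2 in place of 3 were therefore higher, Meg3 and Dlk1. Mest in the same comparison went from 0.15 to between -0.27 and -0.03 under these scalings, Ndn from 0.33 to -0.06 after quantile normalization, and Peg3 in pHes1_ENCs from 0.05 to -0.08 at the same total and -0.02 after quantile normalization. The same-total scaling moved the median of all genes tested from 0.15 to -0.09 between fractions at P4 and from 0.17 to -0.11 between ages in pHes1_EPCs; the fraction differences of the 9 genes kept their signs. Of all genes, the share past 2-fold was 2.77% to 9.85% upward and 2.57% to 6.79% downward over the 4 comparisons with no filter on low values, where more genes are counted. With a pseudocount of 0.1 and with the ratio it was 10.9% and 11.7% upward in pHes1_EPCs at P4 against P1 (7.04% as reported), 6.98% and 7.57% downward (4.33%), and 15.4% and 16.3% downward in pHes1_ENCs (10%). At the same total it was 9.97% downward in pHes1_EPCs, 15.4% downward in pHes1_ENCs and 15.3% downward between fractions at P4 (9.15%), and after quantile normalization 4.58% upward in pHes1_EPCs. The same-total setting also lowered the weight of the pseudocount, so its shares mix both changes. No paired analysis was possible because each group is 1 library, and no library could be left out.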
